A study of Mus musculus with 10 samples.

Results

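The 9 genes described here belong to the insulin-like growth factor (IGF) system and were followed in left ventricles of mice. They are the ligands Igf1 and Igf2, the receptor Igf2r, and the binding proteins Igfbp2 to Igfbp7. Some of the animals received a regimen used as a model of HFpEF, heart failure in which the ejection fraction is preserved. The genes were taken by symbol from the count table, 9 of its 55385 genes, and 8 had enough counts to be tested. RNA was sequenced from left ventricular tissue of C56Bl6 mice (strain name as labelled). In the Control group 5 libraries came from animals on standard chow for 6 weeks. In the HFpEF group 5 libraries came from animals given high-fat food plus L-NAME, which blocks nitric oxide synthases, over the same period. The labels give neither age nor sex and do not say that each library is a separate mouse, so the p-values reflect only how these libraries spread, which may be technical.

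IGF1 and IGF2 are small secreted growth factors that act through the IGF1 receptor. Most circulating IGF1 is made by the liver under growth hormone, and tissues such as the heart also make their own. Secreted binding proteins hold the ligands, lengthen their life and limit their access to the receptor, and proteases such as pappalysin free the ligands by cutting the binding proteins. IGF2R carries IGF2 to the lysosome for degradation and also sorts lysosomal enzymes that bear mannose 6-phosphate. In the mouse Igf2 is expressed from the paternal allele and Igf2r from the maternal allele.

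Control libraries held 31555001 to 46108710 counts and HFpEF libraries 31286355 to 33604554. Values below are CPM, the count scaled to a common library total by edgeR, and fold changes are HFpEF against Control on the log2 scale with their standard error (SE). Mitochondrial transcripts took 35.7% ± 1.70 of the Control counts and 37.6% ± 0.897 of the HFpEF counts (SD, n = 5), a difference with p = 0.0635 in a two-sided exact permutation test. The scaling factors that enter CPM averaged 1.04 ± 0.0354 for Control and 0.966 ± 0.0351 for HFpEF (SD, n = 5; p = 0.0238 in the same exact test). The tissue showed ventricular markers, with Myh6, the main cardiac myosin of the adult mouse, at 11300 CPM or more and the ventricular light chain Myl2 at 1900 CPM or more in every library. Of 5 cardiomyocyte markers the troponin Tnnt2, named after its value was seen, fell (-0.22 ± 0.05 SE on the log2 scale, edgeR adjusted p = 0.0185) and 4 were not called. That call was lost without Control 1, without HFpEF 2 and without HFpEF 4, with a highest adjusted p of 0.0639. The atrial light chain Myl7 stayed at 0.314 CPM or less. Adipocyte markers summed to at most 0.654 CPM. Control 5, the deepest library, had the highest Control value for Igf1, Igf2r, Igfbp4, Igfbp6 and Igfbp7 and the lowest for Igf2 and Igfbp3.

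None of the 8 tested genes passed the test between the groups after adjustment over all genes. Fitted levels were lower in HFpEF for 6 of them, Igf1, Igf2, Igfbp3, Igfbp4, Igfbp6 and Igfbp7, and Igf2r and Igfbp5 had higher ones. The fitted differences ran from -0.30 for Igf1 to 0.16 for Igfbp5, and adjusted p-values from 0.120 for Igfbp4 to 0.453 for Igfbp3. A gene was called at an adjusted p below 0.05 by edgeR (quasi-likelihood F test), where Benjamini-Hochberg adjustment covered all 18491 tested genes. Of the members 0 of 8 were called, beside 985 of all genes, 5.33%. At an unadjusted p below 0.05 there were 3 members, Igf1 and Igfbp4 on the lower side and Igf2r on the higher side, beside 20.5% of all genes. DESeq2 and limma voom also called 0 of the 8.

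**Figure D1:**
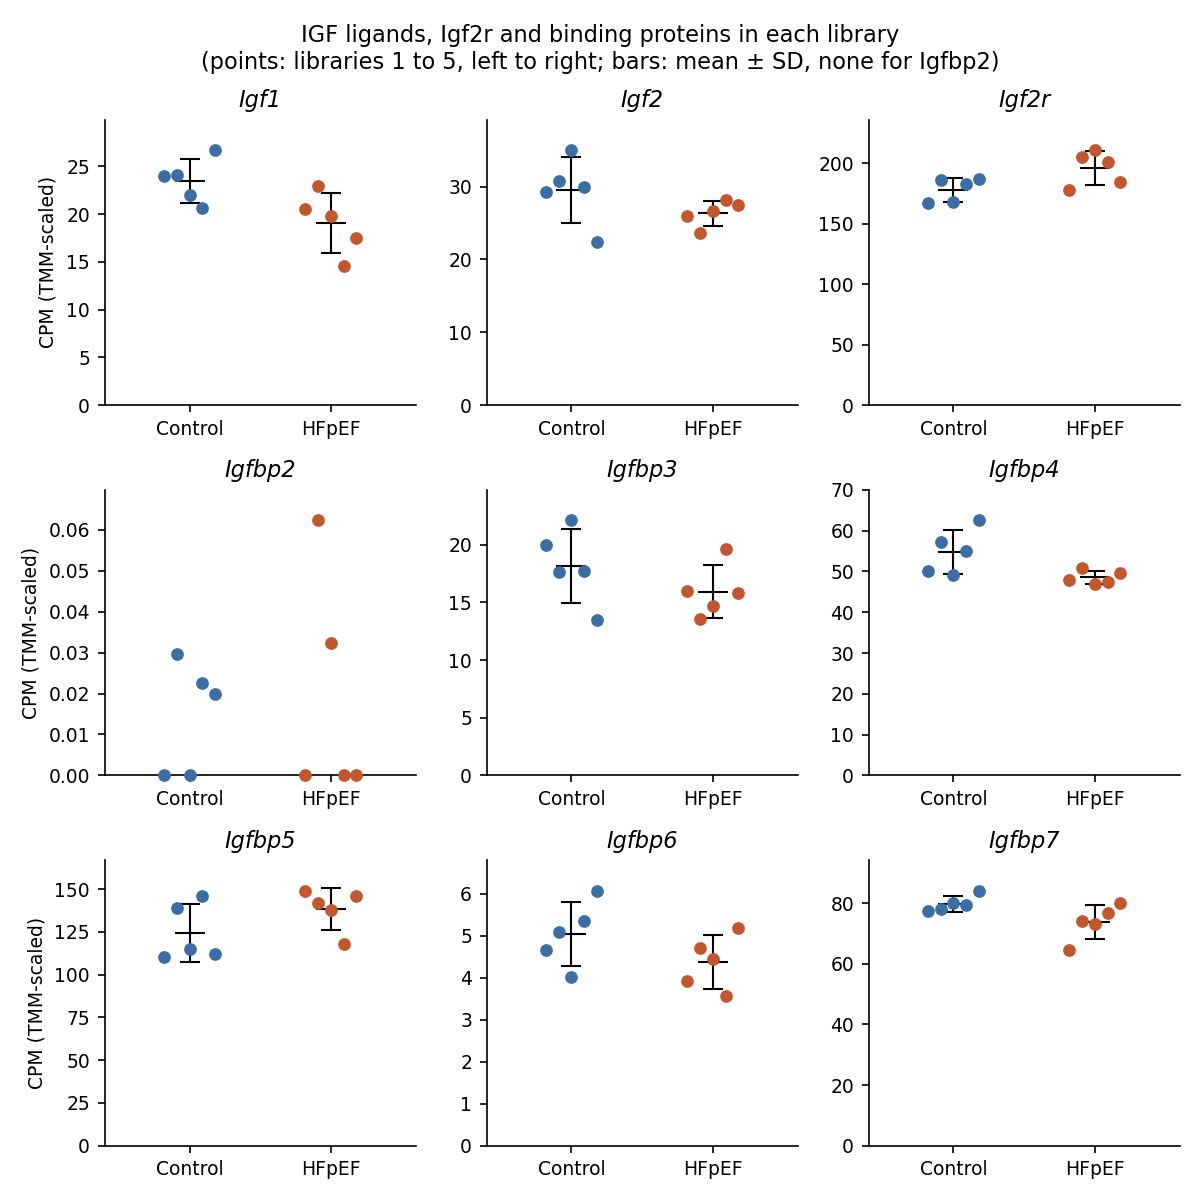
CPM of the 9 genes in each of the 5 Control and 5 HFpEF libraries (points), with the mean ± SD as bars except for Igfbp2, and each vertical axis starting at 0. The groups overlap in all 9 panels; for Igf1, 4 of the HFpEF points lie below every Control point, and for Igf2r 3 lie above every Control point.

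The levels of the genes differed far more from each other than between the groups. Compared per kilobase of merged exons, Igfbp7 was the most abundant member, with 66.0 ± 2.17 CPM per kb in Control and 61.0 ± 4.73 CPM per kb in HFpEF (SD, n = 5). Igfbp7 encodes a secreted protein of vessel walls that binds IGFs with low affinity. The next level was that of Igfbp5, with 20.7 ± 2.84 CPM per kb in Control and 23.1 ± 2.04 in HFpEF. Igf2r stood at 19.1 ± 1.05 and 21.1 ± 1.49 CPM per kb. The ranges of Igfbp5 and Igf2r overlapped in each group, so their order was not resolved.

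Igfbp4 followed with 12.4 ± 1.24 CPM per kb in Control and 11.0 ± 0.379 in HFpEF, below all values of Igf2r and above all values of Igfbp3. Igfbp3, Igf2 and Igfbp6 lay close together in Control, at 5.80 ± 1.02, 5.15 ± 0.791 and 4.53 ± 0.688 CPM per kb, with overlapping ranges between neighbours. Igfbp3 was nevertheless above Igf2 in each of the 10 libraries. Of the members with measurable counts Igf1 was lowest, at 2.37 ± 0.235 CPM per kb in Control and 1.92 ± 0.319 in HFpEF. The order was the same in both groups, and also when the longest annotated transcript was used as the length. With that length Igf1 stood at 3.33 CPM per kb in Control and its range overlapped that of Igfbp6.

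**Figure D2:**
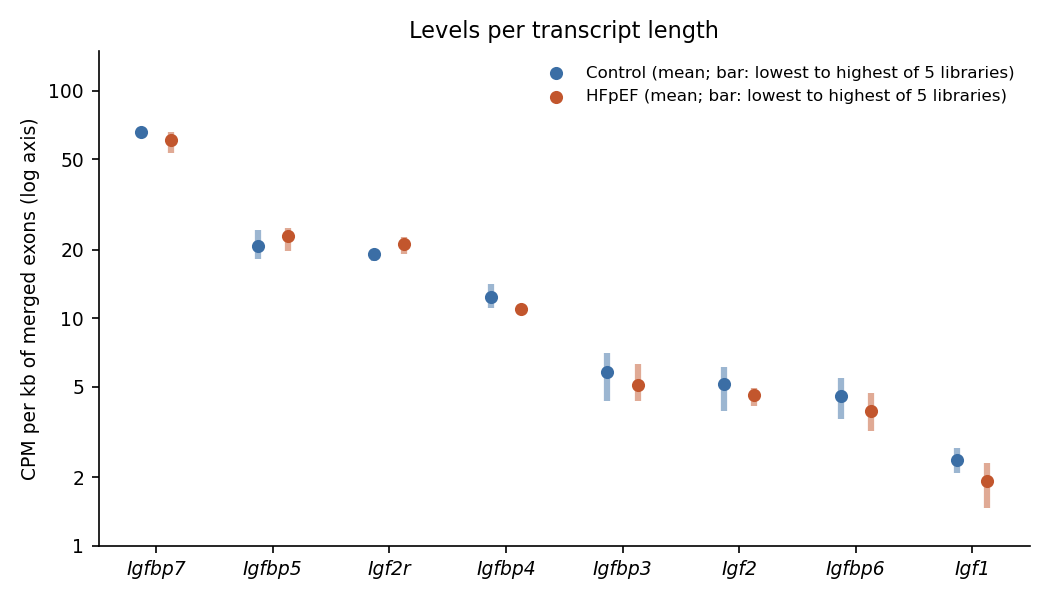
Mean CPM per kilobase of merged exons (log axis) for the 8 members with measurable counts, by group; bars run from the lowest to the highest of 5 libraries. Igfbp7 stands above the rest, at 66.0 in Control, and Igf1 is lowest, at 2.37; Igfbp2 is left out because it had at most 2 counts in a library.

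Because transcripts were measured, these levels say nothing of the amount of protein. On the per-length scale the summed binding proteins came to 109 ± 3.74 CPM per kb in Control and 104 ± 4.92 in HFpEF (SD, n = 5). The ligands together came to 7.52 ± 0.633 and 6.53 ± 0.112 CPM per kb. By merged exons, binding protein transcripts thus outnumbered ligand transcripts 14.7 ± 1.59 times in Control and 16.0 ± 0.821 times in HFpEF. The ranges, 12.9 to 17.0 and 14.8 to 16.9, overlapped. These ratios depend on the length used. With the longest annotated transcript, Control Igf1 and Igf2 stood at 3.33 and 6.24 CPM per kb, beside 2.37 and 5.15 by merged exons. Igfbp7 made up 60.3% ± 1.97 of the binding protein sum in Control and 58.5% ± 2.46 in HFpEF. Igfbp5 made up 18.9% ± 2.18 and 22.2% ± 2.27. These sums and shares are descriptions and were not tested.

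Of the ligands, Igf1 (ENSMUSG00000020053.18; mm10 chromosome 10, 87858265 to 87937042, plus strand) had the largest fitted difference of the 8 genes. Its CPM in Control 1 to 5 were 24.0, 24.1, 22.0, 20.6 and 26.7. In HFpEF 1 to 5 they were 20.5, 22.9, 19.8, 14.6 and 17.5. All HFpEF libraries but HFpEF 2 lay below the lowest Control library, and HFpEF 4 was the lowest of all. The means were 23.5 ± 2.32 and 19.1 ± 3.16 CPM (SD, n = 5). The log2 fold change was -0.30 ± 0.11 (SE; 95% interval from -0.53 to -0.07; edgeR adjusted p = 0.126), a fold of 0.812.

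Igf1 did not pass the threshold under any alternative that was run. Its adjusted p ranged from 0.0522 without HFpEF 2 to 0.280 with no filter on low counts. The direction was kept in all 20 alternatives, between -0.37 and -0.22. The antisense gene Igf1os shared no exonic base with Igf1 and had at most 10 counts in a library.

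Igf2 (ENSMUSG00000048583.16; chromosome 7, 142650766 to 142666816, minus strand) encodes the growth factor that dominates before birth. It had more transcripts per length than Igf1 in both groups. By merged exons the ratio of Igf2 to Igf1 was 1.45 to 2.76 in Control libraries and 1.79 to 3.35 in HFpEF libraries. The CPM of Igf2 were 29.3, 30.7, 35.0, 30.0 and 22.4 in Control 1 to 5 and 25.9, 23.6, 26.6, 28.1 and 27.5 in HFpEF 1 to 5. Control 5 was the lowest of all 10 libraries, and the other Control libraries lay above every HFpEF library. The log2 fold change was -0.16 ± 0.10 (SE; 95% interval from -0.36 to 0.05; edgeR adjusted p = 0.381).

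Whether Igf2 was called turned on Control 5. Without Control 5 the log2 fold change was -0.24 and edgeR's adjusted p was 0.0481, the only call of a member in any alternative. Without Control 4 and Control 5 together, an alternative chosen after seeing the data, it was -0.26 (adjusted p = 0.0568), and without Control 3 it was -0.09 (adjusted p = 0.640). The gene model Gm49394 shares 62.8% of the exonic bases of Igf2 on the same strand. It had 0 counts in every library but HFpEF 4, where it had 13, so how reads were divided between these models is uncertain there. The antisense gene Igf2os covers 1.7% of the exonic bases of Igf2 and had at most 9 counts in a library.

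Igf2r (ENSMUSG00000023830.14; chromosome 17, 12682406 to 12769664, minus strand) was the member with the most counts per library, from 5351 to 9371. Its CPM were 167, 186, 168, 183 and 187 in Control and 178, 205, 211, 201 and 185 in HFpEF. HFpEF 2, 3 and 4 lay above every Control library, and HFpEF 1 and 5 lay within the Control range. For Igf2r the log2 fold change was 0.14 ± 0.06 (SE; 95% interval from 0.02 to 0.26; edgeR adjusted p = 0.184). Adjusted p-values over the alternatives ran from 0.0791 without HFpEF 1 to 0.366 without HFpEF 3.

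By merged exons the ratio of Igf2r to Igf2 transcripts was 3.81 ± 0.800 in Control and 4.59 ± 0.505 in HFpEF (SD, n = 5). The ranges of this ratio, 2.96 to 5.12 and 4.13 to 5.33, overlapped. Of 4 other genes of mannose 6-phosphate sorting none was called. They were the small mannose 6-phosphate receptor M6pr (-0.03 ± 0.05), the phosphotransferase subunits Gnptab (0.05 ± 0.06) and Gnptg (0.03 ± 0.09), and the uncovering enzyme Nagpa (-0.09 ± 0.10), with adjusted p-values of 0.649 or more. Exons of Unkl on the opposite strand cover 49.5% of the exonic bases of Gnptg.

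Among the binding proteins Igfbp4 (ENSMUSG00000017493.12; chromosome 11, 99041244 to 99054392, plus strand) had the smallest adjusted p. IGFBP4 is known as an inhibitor of IGF action that pappalysin cuts. Its CPM were 50.1, 57.2, 49.1, 55.0 and 62.5 in Control and 47.9, 50.9, 47.0, 47.3 and 49.7 in HFpEF. HFpEF 1, 3 and 4 lay below every Control library, and the HFpEF libraries spread less, with an SD of 1.67 CPM beside 5.50 CPM in Control. HFpEF differed from Control by a log2 fold change of -0.17 ± 0.06 (SE; 95% interval from -0.31 to -0.04; edgeR adjusted p = 0.120). Without Control 5 it was -0.11 (adjusted p = 0.261), and without Control 4 and Control 5 -0.10 (adjusted p = 0.395).

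Igfbp3 (ENSMUSG00000020427.11; chromosome 11, 7206086 to 7213923, minus strand) encodes the main carrier of IGFs in blood. Its CPM were 20.0, 17.6, 22.1, 17.7 and 13.5 in Control and 16.0, 13.6, 14.7, 19.6 and 15.8 in HFpEF. All HFpEF values lay within the Control range, at whose lower end was Control 5. Its log2 fold change was -0.18 ± 0.13 (SE; edgeR adjusted p = 0.453). It was -0.11 without Control 3 and -0.32 without Control 4 and Control 5, with adjusted p-values of 0.709 and 0.125.

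Igfbp5 (ENSMUSG00000026185.8; chromosome 1, 72857932 to 72874884, minus strand) encodes a binding protein that attaches to the extracellular matrix, and was the binding protein with a positive fitted difference. Its CPM were 110, 139, 115, 146 and 112 in Control and 149, 142, 138, 118 and 146 in HFpEF. Control 2 and 4 lay within the HFpEF range, and Control 1, 3 and 5 lay below every HFpEF library. Its fitted log2 fold change was 0.16 ± 0.09 (SE; edgeR adjusted p = 0.338).

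Igfbp6 (ENSMUSG00000023046.6; chromosome 15, 102144362 to 102149511, plus strand), whose product prefers IGF2 over IGF1, had 107 to 305 counts per library. Its CPM were 4.67, 5.09, 4.02, 5.35 and 6.07 in Control and 3.91, 4.71, 4.45, 3.56 and 5.19 in HFpEF. HFpEF 1 and 4 lay below the Control range. Its log2 fold change was -0.22 ± 0.12 (SE; edgeR adjusted p = 0.339), and -0.13 without Control 5 (adjusted p = 0.592) and -0.07 without Control 4 and Control 5 (adjusted p = 0.810).

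Igfbp7 (ENSMUSG00000036256.13; chromosome 5, 77349240 to 77408041, minus strand) varied least in Control, where its coefficient of variation was 3.30%. Its CPM were 77.3, 78.2, 80.1, 79.3 and 84.1 in Control and 64.7, 74.0, 73.2, 76.9 and 80.0 in HFpEF. All HFpEF libraries but HFpEF 5 lay below the Control range. The log2 fold change was -0.11 ± 0.06 (SE; edgeR adjusted p = 0.260), and -0.07 without HFpEF 1, the lowest library (adjusted p = 0.420). Exons of Polr2b on the opposite strand cover 7.0% of the exonic bases of Igfbp7.

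Igfbp2 (ENSMUSG00000039323.18; chromosome 1, 72824503 to 72852474, plus strand) was at the limit of detection. It had 3 counts in all Control libraries together, 1 each in Control 2, 4 and 5, and 3 in all HFpEF libraries, 2 in HFpEF 2 and 1 in HFpEF 3. A count of 0 over a group would allow up to 3 counts, counting error only. By unscaled library totals that is 0.0161 CPM in Control and 0.0184 CPM in HFpEF. Because Igfbp2 had 3 counts in each group, these values are not upper limits for it. No fold change is given. Igfbp1, a gene of the liver that FoxO1 is known to drive, had 0 counts in all libraries, so the limits of a count of 0 hold for it.

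The spread between libraries of a group was larger than counting error for all 8 tested genes. For Igf1 the coefficient of variation was 9.90% in Control and 16.6% in HFpEF, beside 3.63% expected from counting at its mean count. For Igf2r it was 5.50% and 7.10%, beside 1.24%. The 95% intervals of the folds ran from 0.693 to 0.952 for Igf1, from 0.808 to 0.971 for Igfbp4 and from 0.726 to 1.07 for Igfbp3.

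The median log2 fold change of the 8 members was -0.17, beside -0.01 over all genes tested, and the median absolute value was 0.17 beside 0.11. No member had groups that did not overlap, beside 6.81% of all genes. The members were picked as a family, and these counts describe them without a test.

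**Figure D3:**
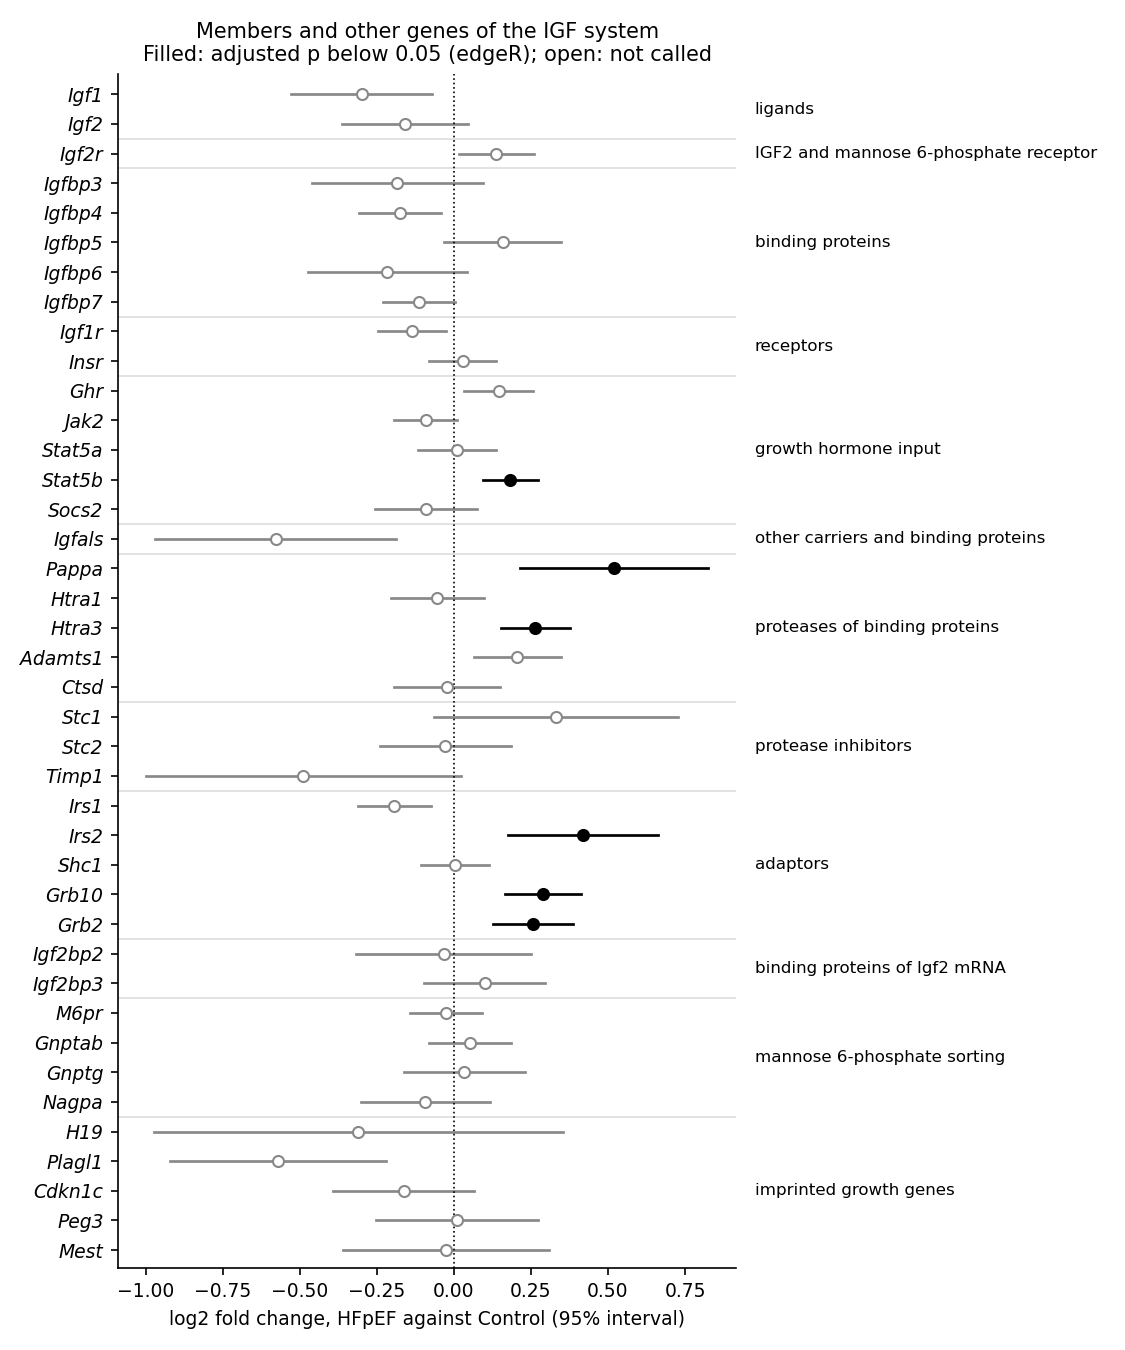
log2 fold change of HFpEF against Control with its 95% interval for the 8 tested members and 32 other genes of the IGF system, grouped by role; filled points passed an adjusted p of 0.05 in edgeR. No member is filled, and the 6 filled genes (Stat5b, Pappa, Htra3, Irs2, Grb10 and Grb2) all lie to the right of 0.

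Around these members, some genes that act before or after the ligands changed. A list of 38 other genes of the IGF system held 32 that were tested, and 6 rose, 0 fell and 26 were not called. That is 18.8% called, beside 5.33% of all genes, and 3.24% of all genes rose. The list was written with earlier results of these data known, so these shares describe it without a test. The genes that rose were Pappa and Htra3, listed as binding protein proteases, the adaptors Irs2, Grb10 and Grb2, and the transcription factor Stat5b. The count dropped to 3 without Control 1 and to 2 without HFpEF 3. Calls on the lower side depended on the setting. RLE scaling called 6 higher and 0 lower, DESeq2 7 and 2, limma voom 5 and 1, and upper quartile scaling 4 and 1. The list's median log2 fold change was -0.01, as over all genes, with 16 positive and 16 negative values. The genes not tested for low counts were Insrr, Igfbp1, Igfbpl1, Pappa2, Igf2bp1 and Dlk1.

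The receptor that carries the signal of IGF1 and IGF2, Igf1r, was not called. Its CPM were 53.4, 51.6, 58.9, 59.0 and 53.2 in Control and 53.2, 47.2, 50.2, 49.8 and 50.9 in HFpEF, and all HFpEF libraries but HFpEF 1 lay below the Control range. Igf1r had a log2 fold change of -0.14 ± 0.05 (SE; edgeR adjusted p = 0.146). The insulin receptor Insr, which also binds IGF2, had a log2 fold change of 0.03 ± 0.05 with a 95% interval from -0.08 to 0.14 (adjusted p = 0.802). Leaving out 1 library moved the value for Insr between 0.004 without HFpEF 3 and 0.063 without Control 4, with 0.006 without Control 5.

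Of 5 genes of growth hormone input, 1 rose and 4 were not called. Stat5b, which growth hormone signalling activates to switch on Igf1, had CPM of 45.9, 46.4, 46.9, 46.7 and 43.5 in Control and 51.9, 52.2, 54.1, 52.1 and 50.1 in HFpEF. All HFpEF libraries lay above all Control libraries. The rise was 0.18 ± 0.04 on the log2 scale (SE; edgeR adjusted p = 0.0195), and the call ended without HFpEF 3 (adjusted p = 0.0575) and without Control 4 and Control 5 (adjusted p = 0.0728). The growth hormone receptor Ghr stood at 110 ± 7.69 CPM in Control and 122 ± 4.09 in HFpEF (SD, n = 5; log2 fold change 0.15 ± 0.05 SE, edgeR adjusted p = 0.124). Socs2, a feedback inhibitor that growth hormone induces, had a log2 fold change of -0.09 ± 0.08 (adjusted p = 0.559).

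Of 5 tested genes listed as proteases of binding proteins, 2 rose and 3 were not called. Whether HTRA3 cuts IGF binding proteins was not tested. Htra3, a secreted serine protease, had CPM of 40.4, 45.0, 40.8, 40.0 and 41.5 in Control and 54.3, 51.9, 46.6, 47.9 and 48.6 in HFpEF. The groups did not overlap, and the rise was 0.26 ± 0.05 on the log2 scale (SE; edgeR adjusted p = 0.00919). Htra3 stayed called in all 20 alternatives. Pappa, pappalysin, which cuts IGFBP4, had CPM of 2.44, 2.31, 2.95, 3.14 and 2.39 in Control and 4.63, 3.21, 4.41, 2.83 and 3.89 in HFpEF. All HFpEF libraries but HFpEF 4 lay above the Control range. The rise was 0.52 ± 0.14 (SE; edgeR adjusted p = 0.0475), close to the threshold.

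Leaving out 1 library kept the call of Pappa in 3 of 10 fits, those without Control 4, HFpEF 2 or HFpEF 4, and ended it in the rest (adjusted p up to 0.129). Upper quartile scaling (adjusted p = 0.0566), limma voom (0.0571) and a fit that was not robust (0.0542) ended it too, as did leaving out Control 4 and Control 5 (0.0766), so that Pappa was called in 8 of 20 alternatives. Adamts1, named after its value was seen, had a log2 fold change of 0.21 ± 0.07 and missed the threshold (adjusted p = 0.0856), which it passed without Control 5 (0.26, adjusted p = 0.0249) and in DESeq2 (adjusted p = 0.0497). Of 3 protease inhibitors none was called, among them the inhibitors of pappalysin Stc1 (0.33 ± 0.18) and Stc2 (-0.03 ± 0.10). Igfals, the acid-labile subunit that joins IGF and IGFBP3 in the large complex of blood, was named after its value was seen. It stood at 2.56 ± 0.663 CPM in Control and 1.69 ± 0.262 in HFpEF (SD, n = 5; log2 fold change -0.58 ± 0.18 SE, edgeR adjusted p = 0.0825), and was called lower without Control 5 (adjusted p = 0.0145), without Control 4 and Control 5 (0.0118) and with no filter on low counts (0.0493).

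Of 5 adaptors, 3 rose and 2 were not called. Grb10, an adaptor that dampens signalling of the insulin and IGF1 receptors and is itself imprinted, had CPM of 62.7, 64.2, 57.0, 63.0 and 60.4 in Control and 64.5, 77.5, 76.8, 77.0 and 79.7 in HFpEF. HFpEF 1 lay just above the highest Control library and far below the other HFpEF libraries. The rise was 0.29 ± 0.06 (SE; edgeR adjusted p = 0.0100), and 0.34 without HFpEF 1. Grb10 stayed called in all 20 alternatives.

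Grb2, which links receptors to Ras, stood at 35.8 ± 2.38 CPM in Control and 42.8 ± 3.26 in HFpEF (SD, n = 5; log2 fold change 0.26 ± 0.06 SE, edgeR adjusted p = 0.0236). Its call ended without Control 1, HFpEF 3 or HFpEF 4 (adjusted p up to 0.0712). Irs2, a docking protein of both receptors, had CPM of 15.3, 15.8, 15.8, 13.8 and 9.72 in Control and 18.3, 18.7, 19.6, 19.9 and 17.3 in HFpEF, with no overlap. Its rise was 0.42 ± 0.11 (SE; edgeR adjusted p = 0.0479), and 2 of the 10 fits without 1 library kept the call, those without Control 2 or Control 5. The call of Irs2 also ended under upper quartile scaling (adjusted p = 0.0641), without mitochondrial transcripts (0.0502) and with no filter on low counts (0.093). Without Control 4 and Control 5 it was 0.26 (adjusted p = 0.0343). Irs1, its relative, was named after its value was seen and lay on the other side (-0.19 ± 0.06, adjusted p = 0.0596). Irs1 was called lower by DESeq2 (adjusted p = 0.0377), under upper quartile scaling (0.0493) and without Control 2 (0.0348). Exons of Gm9747 on the opposite strand cover 30.9% of the exonic bases of Irs1.

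Of 5 tested imprinted growth genes none was called. H19, the noncoding neighbour of Igf2 that shares its enhancers, spanned 5.30 to 13.5 CPM in Control and 4.57 to 9.49 CPM in HFpEF (log2 fold change -0.31 ± 0.29 SE, edgeR adjusted p = 0.615). Plagl1, which encodes a zinc finger factor, was named after its value was seen. It spanned 8.42 to 11.4 CPM in Control and 4.60 to 8.73 CPM in HFpEF (-0.57 ± 0.16, adjusted p = 0.0634). DESeq2 called Plagl1 lower (adjusted p = 0.0076), as did limma voom (0.0432), a fit that was not robust (0.0458) and the fit without HFpEF 1 (0.00831). The binding proteins of Igf2 mRNA that could be tested, Igf2bp2 and Igf2bp3, were not called, with adjusted p-values of 0.592 or more.

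In bulk tissue fewer cells of a type and less RNA per cell cannot be told apart, so marker genes of cells that make IGF1 were read beside it. Of 8 macrophage markers 1 fell and 7 were not called, beside 5.33% called of all genes. All 8 fitted differences were negative, with a median of -0.30, beside 9765 negative ones among all 18491 tested genes. The marker that fell was F13a1, a gene of tissue macrophages (-0.69 ± 0.15 SE, edgeR adjusted p = 0.0273). Its call was kept without Control 1, 4 or 5 and ended without each other library (adjusted p up to 0.0762) and with no filter on low counts (adjusted p = 0.0811). The summed level of the 8 markers was 131 to 206 CPM in Control and 108 to 136 CPM in HFpEF, with Control 5 the highest. F13a1 was the most expressed of the 8 and so weighed most in the sum, with means of 39.4 CPM in Control and 24.4 in HFpEF. None of the 8 was at 0.

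Fibroblast markers did not follow the same direction. None of 7 was called, 5 of the 7 fitted differences were positive, and their sum was 779 to 928 CPM in Control and 863 to 965 CPM in HFpEF. Endothelial markers (0 of 6 called) summed to 985 to 1150 CPM and 933 to 1110 CPM, and pericyte markers (0 of 5) to 970 to 1120 and 1010 to 1090 CPM. Smooth muscle markers (0 of 4) summed to 75.2 to 127 CPM in Control and 98.1 to 157 CPM in HFpEF. All 4 of their fitted differences were positive, with a median of 0.37. All 5 of the epicardial list were positive too, with a median of 0.23. Only 2 of 6 lymphocyte genes were tested, and that list summed to at most 1.78 CPM in a library. In the endocardial, lymphatic, epicardial, red cell and lymphocyte lists 0 genes were called. The most expressed gene of each was Npr3, Prox1, Wt1, Hba-a2 and Ms4a1, with adjusted p-values of 0.266 or more, and the leading fibroblast, endothelial, pericyte and smooth muscle markers were Gsn (0.08 ± 0.06), Fabp4 (0.05 ± 0.07), Rgs5 (0.10 ± 0.06) and Acta2 (0.47 ± 0.20). Nppa, the natriuretic peptide that leads the atrial list, fell by 1.19 on the log2 scale (± 0.22 SE, edgeR adjusted p = 0.0187), a call that ended without Control 4 and Control 5 (adjusted p = 0.0872). Of the 5 atrial genes 2 were tested, and the other, Myl4, was not called (-0.11 ± 0.25 SE, edgeR adjusted p = 0.853). Alb led the liver list, with 53 counts in HFpEF 3 and at most 1 in any other library, and Plin1 led the adipocyte list. Neither passed the filter on low counts, so they were not tested. Single genes carried much of some sums, as Gsn did for fibroblasts (398 CPM in Control and 422 in HFpEF). For pericytes it was Rgs5 (559 CPM in Control and 598 in HFpEF), followed by Abcc9 (374 and 351). Whether the listed genes mark only the named cells was not tested. The part of any cell type in the values of Igf1 or of the binding proteins was not tested.

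**Figure D4:**
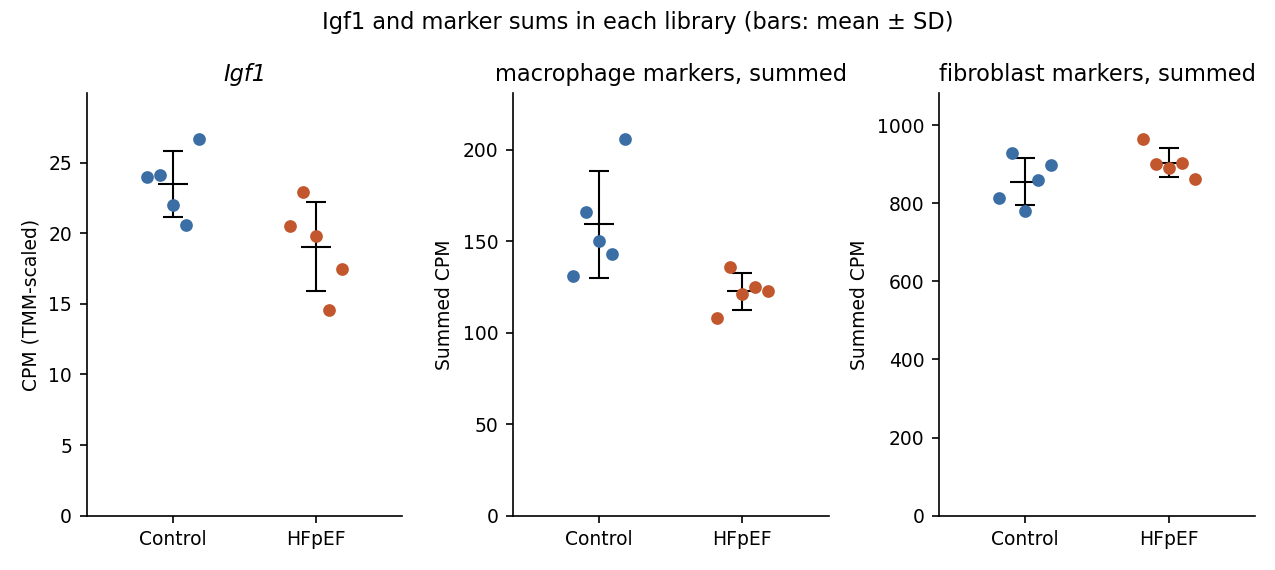
Igf1 and the summed levels of 8 macrophage and 7 fibroblast markers in CPM, per library (points, replicates 1 to 5 from left to right) with mean ± SD; axes start at 0. Igf1 and the macrophage sum are both highest in Control 5, at 26.7 and 206 CPM, while the fibroblast sum is highest in HFpEF 1, at 965 CPM. Their lowest libraries differ. Igf1 is lowest in HFpEF 4 (14.6 CPM, macrophage sum 125 CPM), and the macrophage sum in HFpEF 1 (108 CPM, Igf1 20.5 CPM).

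The genes whose levels followed Igfbp4 most closely over the 10 libraries were Ahnak2, Lrrc42 and Cyb5b. Likeness was the mean absolute difference between log2 CPM, each gene taken relative to its own mean, among 12781 genes whose mean log2 CPM reached 1. The difference was 0.02 for Ahnak2, a large scaffold protein, 0.04 for Lrrc42 and 0.04 for Cyb5b, a cytochrome b5 of the outer mitochondrial membrane. The median gene differed by 0.14, and Igfbp4 itself deviated from its mean by 0.11 on average. Like Igfbp4, all of them were highest in Control 5, and none was called (adjusted p of 0.175 or more). Without Control 5 the log2 fold changes of Ahnak2, Lrrc42 and Cyb5b went from -0.17, -0.18 and -0.10 to -0.11, -0.10 and -0.05. These genes were picked for likeness to Igfbp4 over the same 10 libraries. Their peak in Control 5, lack of calls and smaller differences without it follow largely from that choice and are not separate results.

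**Figure D5:**
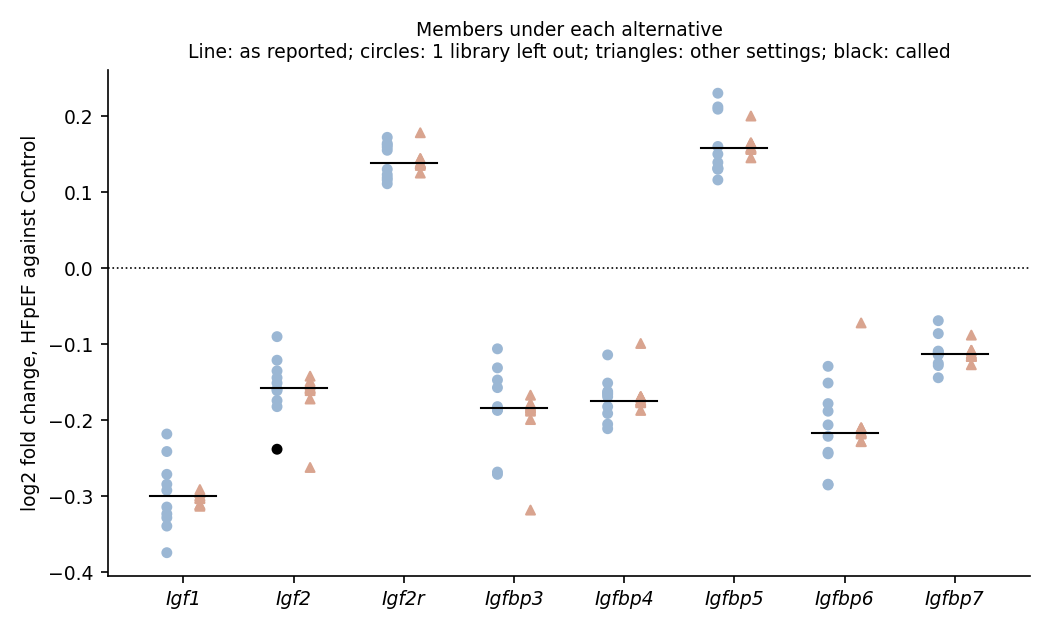
log2 fold change of HFpEF against Control for the 8 tested members as reported (line), in 10 fits that left out 1 library (circles) and in 10 other settings (triangles); black marks an adjusted p below 0.05. Each member keeps its sign throughout, and the single black point is Igf2 without Control 5, at -0.24.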

How the data were processed

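RNA from left ventricular tissue was measured by RNA-seq in 10 libraries, 5 Control and 5 HFpEF. The deposited table holds expected counts per gene, which per the submitters' processing notes involve Bowtie2 2.1.0, RSEM 1.2.15 and mm10; all values were whole numbers, and whether counting used strand is not stated in the labels. The 92 spike-in sequences had 0 counts and were left out. Gene models come from GENCODE M21 (mm10), to which 55144 of 55385 identifiers matched.

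Genes passing filterByExpr (minimum count 10) were tested with edgeR 4.0.16 (R 4.3.3; TMM scaling, robust quasi-likelihood fit, group as the only term), adjusted by Benjamini-Hochberg over 18491 genes. SE values come from the fitted fold change and F statistic. The fit was tested on simulated data. Within a group no 2 libraries agreed within sampling noise (chi-square per degree of freedom at least 4.61). Alternatives used DESeq2 1.42.0, limma 3.58.1 and other scalings, filters and library sets.

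The members and lists were chosen with earlier results of these data known. The named genes were all members, Igf1r, Insr, Ghr, the called genes of the IGF list, the genes most like the member with the smallest p, and the most expressed marker of each cell type list, of which 1 list is not reported here; others are said to be named after their values were seen. Protein sequences were not used here.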

Additional observations from a re-analysis of the deposited data

Results flagged for a closer look

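Among 34 groups of 5 libraries checked for a library far from the others, 2 had one; chance flags about 1 in 20 groups. Stat5b was at 43.5 CPM in Control 5, below the other Control libraries at 45.9 to 46.9 CPM, a gap of 0.724 of the group's range. Grb10 was at 64.5 CPM in HFpEF 1, below the other HFpEF libraries at 76.8 to 79.7 CPM, a gap of 0.808 of the range, where 0.71 is the critical value for 5 libraries.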

How the results depend on the processing

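In all 20 alternatives the 8 tested members kept their sign, and Igf2 without Control 5 was the single call. Leaving out 1 library moved the called members between 0 and 1, the called genes of the wider IGF list between 2 and 7, and the calls over all genes between 554 (without HFpEF 3) and 1101 (without HFpEF 1). Same-numbered libraries had correlations from -0.11 to 0.06 in their deviations from the group mean. So few values cannot settle whether the numbers pair libraries, and the labels name no pairing. A replicate block gave 744 calls, 0 members and 4 genes of the list. With that block the calls of Stat5b (adjusted p = 0.0618), Grb2 (0.0584), Pappa (0.0812), Tnnt2 (0.0573) and Nppa (0.103) ended and Plagl1 was called (0.0123). Reversed signs occurred for the marker Fabp4 (-0.007 without HFpEF 1, up to 0.098 without HFpEF 4) and for Ms4a1 (0.091 without Control 1, 0.198 without Control 4, 0.092 without HFpEF 3 and 0.156 without HFpEF 5, down to -0.23 without Control 5); the cause was not tested. Depth limits Igfbp2 and Igfbp1, which were at or under 3 counts in a group.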
